A study of Mus musculus with 6 samples.

Results

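The TRIM (tripartite motif) genes were followed in the mouse Leydig cell line TM3 under overexpression of A20. They were taken as every protein-coding gene of the deposited count table whose symbol is Trim followed by a number, which gave 68 of 54532 genes. The labels name 2 groups of 3 libraries each, A20 overexpression and an overexpression control with the genotype WT. All 6 cultures were TM3 cells in medium with foetal bovine and horse serum. How A20 was expressed, whether a line was 1 clone and whether the libraries of a group came from separate cultures are not given in the sources used here, so the p-values measure only the spread between these libraries.

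Most TRIM proteins are E3 ubiquitin ligases built from a RING finger, B-boxes and a coiled coil, followed by a C-terminal part that picks the substrate. Ligases of the family act on chromatin, on cytosolic sensors of viral nucleic acid, on the cytoskeleton and in autophagy, and many are induced by interferon. A20 itself edits ubiquitin chains and so dampens NF-kB activity, and several TRIM proteins act in the same pathway.

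Total counts were 15097570 to 16917979 in the A20-overexpressing libraries and 13841287 to 15349354 in the control libraries. Control replicate 1 stood apart from the other 5 libraries. Over 13350 genes its log2 CPM (the count as a share of the library total, scaled to 1000000) correlated with theirs at a Pearson r of 0.906 to 0.930, against 0.951 to 0.984 among the other 5, where genes are not independent replicates. The 7 Leydig cell markers examined summed to 5.26 to 7.86 CPM under A20 overexpression, against 2039, 3.97 and 6.29 CPM in control replicates 1, 2 and 3, and all 7 had counts in control replicate 1. Cyp11a1, Hsd3b1, Cyp17a1 and Lhcgr had no count in any A20-overexpressing library, and in control replicates 2 and 3 only Cyp11a1 had any, at 0.144 CPM in replicate 3. Star, Insl3 and Nr5a1 had counts in every library, at 497, 25.8 and 125 CPM in control replicate 1. In the other 5 libraries they were at 2.52 to 4.54, 0.418 to 2.91 and 0.0697 to 0.596 CPM. The Leydig label was therefore borne out by the full set of these markers in 1 library alone. Tnfaip3, the gene of A20, had 41.0, 33.7 and 43.6 CPM under A20 overexpression, against 30.9, 11.9 and 15.2 CPM in control replicates 1, 2 and 3. Log2 fold changes of Tnfaip3 were 1.51 (edgeR adjusted p = 0.000256) without control replicate 1 and 1.08 (adjusted p = 0.331) with it. Fits were therefore made both with all 6 libraries and with 5, without control replicate 1.

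Of the 68 TRIM genes, 10 had no count in any library, 22 had too few counts to be tested, and 36 passed the expression filter of the test, the same number with 6 and with 5 libraries. A gene can pass that filter through its higher group alone, so counts over these 36 describe them and do not speak for the family. The summed level of all 68 genes was 1641, 1552 and 1582 CPM under A20 overexpression, against 1704, 1438 and 1505 CPM in control replicates 1, 2 and 3. The sums of the groups overlapped through control replicate 1, since the sums of control replicates 2 and 3 lay below each sum under A20 overexpression. Without Trim44 the control sums were 1578, 1428 and 1496 CPM.

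Per length, Trim28, Trim59, Trim24, Trim35, Trim3 and Trim37 had the highest mean FPKM (the count per kilobase of gene length and per 1000000 of library size) over the 6 libraries, at 60.8, 45.9, 19.0, 18.5, 16.4 and 14.9. Trim28 encodes the corepressor KAP1, which silences retroelements through zinc finger proteins, and Trim37 a ligase of centrosomes and peroxisomes. The silent genes included those of muscle ligases, Trim54 and Trim55.

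**Figure D1:**
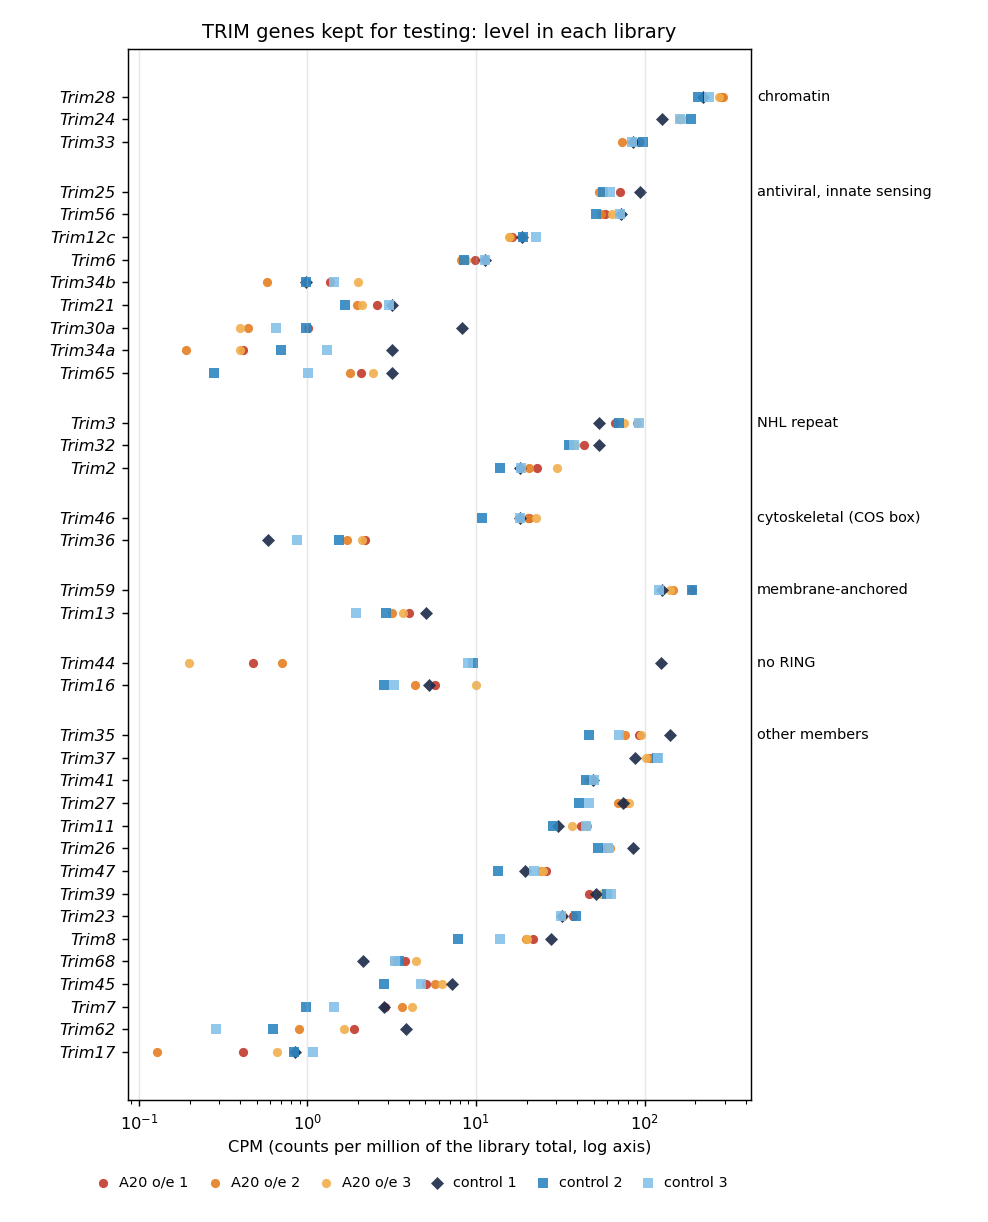
Level of each of the 36 TRIM genes that passed the expression filter, in CPM on a log axis, with 1 point per library and genes grouped by role and ordered by mean FPKM within a group. Trim44 has the widest range, 0.199 to 126 CPM. Trim30a, Trim34a, Trim62 and Trim65 follow, with 20.8-, 16.7-, 13.3- and 11.45-fold between the highest and lowest library.

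With all 6 libraries, edgeR's quasi-likelihood test called 0 of the 36 TRIM genes at an adjusted p under 0.05, where 0.0150% of the 13350 genes tested were called. An unadjusted p under 0.05 was found for 8 of them (22.2%), 5 higher and 3 lower in A20 overexpression, where 4.19% of all genes tested were higher and 5.86% lower at that threshold. DESeq2, limma-voom and limma-trend on FPKM also called 0, where DESeq2 gave Trim44 no adjusted p and so made no decision on it. The groups did not overlap in CPM for 6 TRIM genes that were higher and 4 that were lower in A20 overexpression, which is 16.7% and 11.1% of the 36, against 7.62% and 9.27% of all genes tested. The median log2 fold change of the 36 genes was 0.07, against -0.03 over the genes tested.

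Without control replicate 1, edgeR called 3 of the 36 TRIM genes (8.33%), where 4.60% of 13658 genes were called. Trim44 fell, and Trim27 and Trim8 rose. The 2 that rose and the 1 that fell are 5.56% and 2.78% of the 36, against 1.92% and 2.68% of all genes tested, so the share that fell was at the background and that which rose rests on 2 genes. An unadjusted p under 0.05 was found for 11 of the 36 TRIM genes that were higher, against 10.4% of all genes tested. It was found for 3 of the 36 that were lower, against 11.2% of all genes tested. The groups did not overlap for 14 TRIM genes that were higher and 5 that were lower in A20 overexpression, or 38.9% and 13.9%, against 20.7% and 17.2% of all genes tested. The median log2 fold change of the 36 was 0.07, against -0.0027 over the genes tested. The calls depended on single libraries. Without A20-overexpressing replicate 1 or replicate 3 as well, Trim44 alone was called, where 142 and 160 of all genes were. Without A20-overexpressing replicate 2, Trim27 and Trim44 were called, where 191 of all genes were. The 5 libraries gave 628 calls over all genes, so the loss of calls was not particular to the TRIM genes. Where control replicate 2 or 3 is left out, 1 control remains, which is assumed to vary like the A20-overexpressing libraries. Calls of those fits are not counted here. Control replicate 2 held the lowest CPM of the 6 libraries for 17 of the 36 genes (47.2%), against 31.5% of all genes tested, and its part in the higher values of A20 overexpression was not tested.

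**Figure D2:**
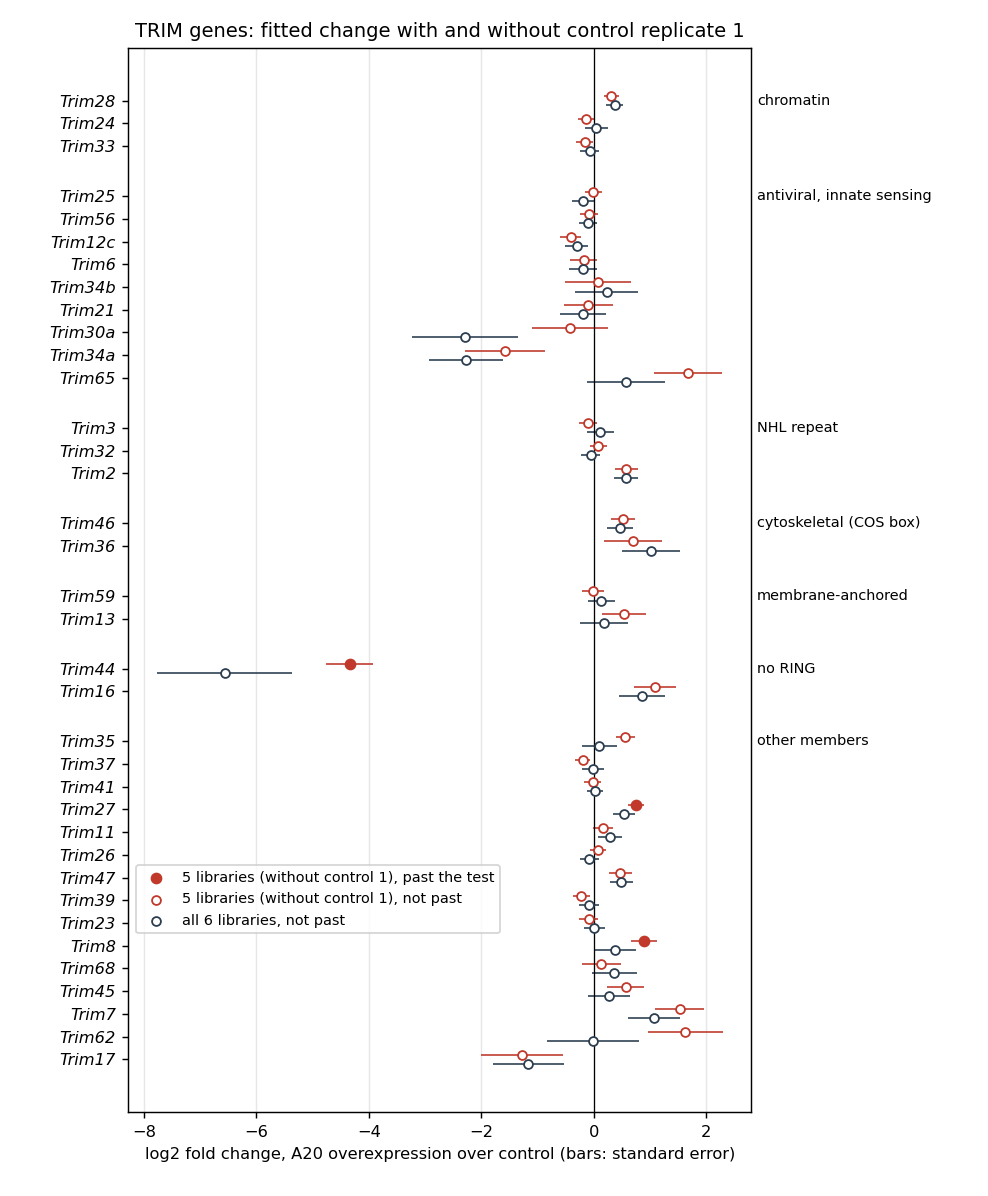
Log2 fold change of A20 overexpression over control for the 36 tested TRIM genes, on the x axis, with approximate standard errors, from 5 libraries (red) and from all 6 (dark). Filled points passed edgeR's test: Trim44 lies far to the left of all others, and Trim27 and Trim8 are the 2 that rose.

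Trim44 had the largest fitted difference of the 36 genes in both fits. Its protein lacks a RING finger and carries instead a zinc finger of the kind found in ubiquitin-specific proteases, and it has been described as a deubiquitinase-like member that stabilises its partners. The gene (ENSMUSG00000027189, GRCm38 chromosome 2, 102300119 to 102407828, minus strand) was at 0.473, 0.703 and 0.199 CPM under A20 overexpression, from 8, 11 and 3 counts. It was at 126 CPM in control replicate 1 and at 9.62 and 8.96 CPM in control replicates 2 and 3, from 1936, 138 and 124 counts. The values formed 3 separate levels, with every A20-overexpressing library below every control and control replicate 1 far above the other controls. In bulk RNA, fewer cells that express the gene and less RNA per cell cannot be told apart.

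With 5 libraries Trim44 averaged 0.458 CPM ± 0.252 (SD, n = 3) in A20 overexpression and 9.29 CPM ± 0.467 (SD, n = 2) in control, a fitted 20.3-fold fall with a log2 fold change of -4.34 ± 0.43 (SE, edgeR adjusted p = 1.48e-05). The gene entered the test through its control libraries, and the few counts in A20 overexpression make the size of this fall imprecise. With 6 libraries the log2 fold change was -6.57 ± 1.21 (SE), and it did not pass (edgeR unadjusted p = 0.000479, adjusted p = 0.202). In the 12 other 5-library fits that could test it the call held, with adjusted p of at most 0.00924. Under a filter of 1 CPM in 3 libraries the gene drops out of the 5-library test.

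Of the 3 nearest protein-coding genes with enough counts on each side, 0 fell in either fit and 1 rose with 5 libraries. Ldlrad3, 113.7 kb away, was at 64.0, 56.9 and 63.6 CPM in A20 overexpression, against 54.3, 72.2 and 53.6 CPM in control replicates 1, 2 and 3. Cd44, which encodes the hyaluronan receptor and lies 403 kb away on the other side, was at 78.9, 74.0 and 76.1 CPM, against 110.0, 71.7 and 55.4 CPM. Neither passed edgeR's test in either fit. Prr5l, an mTORC2-binding protein gene 417 kb away, rose without control replicate 1 (30.7, 35.1 and 33.8 CPM, against 15.8 and 24.1 CPM; log2 fold change 0.71 ± 0.19 SE, edgeR adjusted p = 0.0422; 0.289 with 6 libraries). Commd9, Pdhx and Apip did not pass in either fit, and Pdhx and Apip were higher in control replicate 1, at 69.4 and 23.3 CPM, than in each other library. A processed pseudogene inside Trim44, Gm13868, had 7 counts in all, so it adds little to the gene's reads.

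**Figure D3:**
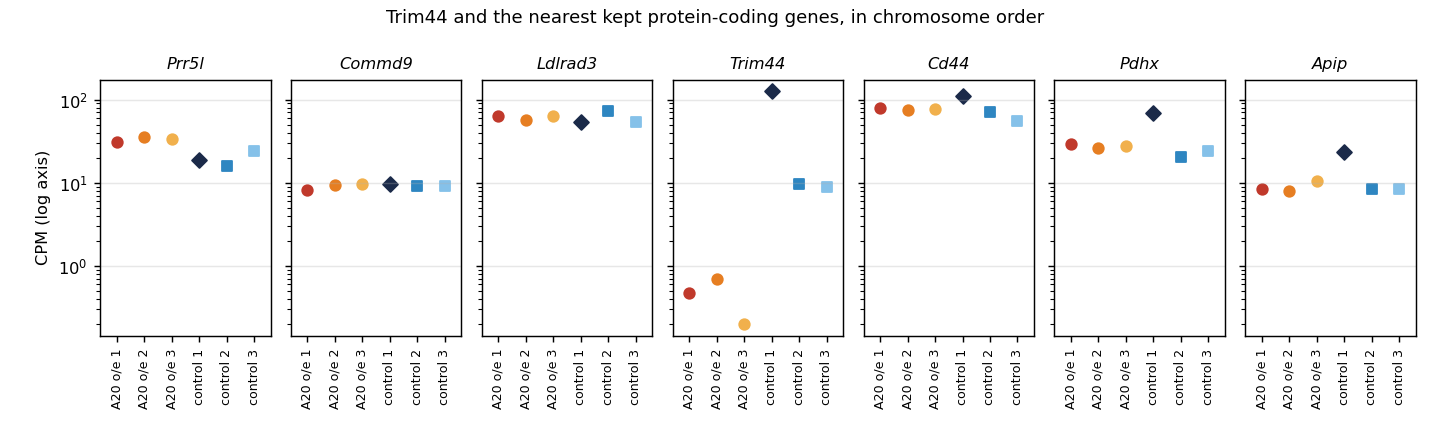
CPM on a log axis of Trim44 and of the 3 nearest protein-coding genes with enough counts on each side, with 1 point per library. Trim44 varies from 0.199 to 126 CPM, while each neighbour stays within a few fold over the 6 libraries.

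The promoter window of Trim44, from 250 bases before to 50 after the annotated start (RefSeq, GRCm38.p6), is shown because it is the member whose RNA varied most; this start lies inside the gene as the deposited table bounds it. It has 75.0% G and C, against a median of 52.7% over 32851 windows of the same kind. It holds neither of the motifs searched on both strands, the core bound by interferon regulatory factors (IRF; GAAA, 2 bases of any kind, GAAA) and the core bound by STAT proteins (TTC, 3 bases of any kind, GAA). They occur in 3.44% and 8.30% of all windows, and the absence of these letters says nothing about the factors.
Trim44, chr2:102400851-102401150, minus strand: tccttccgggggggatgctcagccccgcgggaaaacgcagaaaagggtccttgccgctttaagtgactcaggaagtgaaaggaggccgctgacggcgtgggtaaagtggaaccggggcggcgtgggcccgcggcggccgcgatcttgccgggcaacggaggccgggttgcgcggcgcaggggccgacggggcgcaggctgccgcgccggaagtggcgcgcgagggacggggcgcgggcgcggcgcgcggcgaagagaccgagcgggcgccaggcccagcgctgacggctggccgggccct

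Trim27 and Trim8 rose in the 5-library fit. Trim27 encodes a nuclear and endosomal RING ligase first found as a fusion partner of the RET kinase. It was at 76.5, 70.0 and 81.1 CPM in A20 overexpression, against 74.3, 41.0 and 47.1 CPM in control replicates 1, 2 and 3. Control replicate 1 thus lay within the range of the A20-overexpressing libraries, and the other controls below it. The log2 fold change was 0.75 ± 0.15 (SE, edgeR adjusted p = 0.00925) with 5 libraries and 0.53 ± 0.19 (SE, adjusted p = 0.442) with 6. Trim8, whose protein acts on p53 and on the kinase TAK1 downstream of TNF, was at 21.7, 19.7 and 20.1 CPM, against 27.8, 7.81 and 13.9 CPM. Here control replicate 1 lay above each A20-overexpressing library. The log2 fold change was 0.89 ± 0.23 (SE, edgeR adjusted p = 0.0361) with 5 libraries and 0.38 ± 0.36 (SE, adjusted p = 0.758) with 6. The call of Trim8 was lost on leaving out any 1 of control replicate 2 and the 3 A20-overexpressing replicates (adjusted p = 0.105 to 0.179), and with limma-trend on FPKM.

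Further genes had an unadjusted p under 0.05 in both fits without passing after adjustment. Of these only Trim34a, described below, was lower in A20 overexpression (edgeR unadjusted p = 0.0386 with 5 libraries and 0.00806 with 6). The NHL-repeat gene Trim2, a ligase known from axons, was at 22.9, 20.8 and 30.4 CPM in A20 overexpression, against 18.3, 13.9 and 18.4 CPM in control replicates 1, 2 and 3, with no overlap (log2 fold change 0.58 ± 0.21 SE with 5 and with 6 libraries, edgeR adjusted p = 0.115 and 0.448). Trim7, whose protein binds glycogenin, was at 2.90, 3.64 and 4.17 CPM, against 2.87, 0.976 and 1.45 CPM, with a log2 fold change of 1.52 ± 0.44 (SE, edgeR adjusted p = 0.0544) with 5 libraries and of 1.07 ± 0.46 (SE, adjusted p = 0.492) with 6. It overlaps Gm12184 on the opposite strand, at 6.89 to 10.54 CPM in A20 overexpression and 7.04 to 7.88 CPM in control, and reads of the 2 cannot be told apart without a known strand setting. Trim47 was at 25.9, 24.3 and 25.1 CPM, against 19.5, 13.5 and 22.0 CPM, with a log2 fold change of 0.47 ± 0.20 (SE, edgeR adjusted p = 0.186) with 5 libraries and of 0.49 ± 0.21 (SE, adjusted p = 0.490) with 6. Both genes were higher in every A20-overexpressing library than in every control, as was Trim28.

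Among the chromatin regulators with a PHD finger and bromodomain, 0 of 3 tested passed edgeR in either fit, with an unadjusted p under 0.05 for Trim28 alone in both fits and 0 calls by DESeq2 or limma-voom. Trim28 was at 285, 290.5 and 276.5 CPM in A20 overexpression, against 223, 207 and 240.5 CPM in control replicates 1, 2 and 3, so that the groups did not overlap. Its log2 fold change was 0.31 ± 0.14 (SE, edgeR adjusted p = 0.206) with 5 libraries and 0.37 ± 0.15 (SE, adjusted p = 0.475) with 6. Trim24, a coregulator of nuclear receptors and ligase for p53, was at 162, 161 and 168 CPM, against 128, 189 and 163 CPM, and the groups overlapped. Of 13 partners of TRIM28 in heterochromatin silencing, edgeR called 0 in either fit, while an unadjusted p under 0.05 was found for 2 with 6 and for 3 with 5 libraries, all lower, and DESeq2 called 1 with 5 libraries. Of all genes tested, 5.86% were lower at that unadjusted threshold with 6 libraries and 11.2% with 5, so these few genes do not speak for the partners as a set.

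The antiviral and innate-sensing members split by level. Trim25, which activates the RNA sensor RIG-I, was at 71.8, 53.7 and 55.8 CPM in A20 overexpression, against 94.5, 56.6 and 62.1 CPM in control replicates 1, 2 and 3. Trim56, which acts on the DNA-sensing pathway of STING, was at 58.3, 55.4 and 64.0 CPM, against 72.2, 51.2 and 71.8 CPM. In both the groups overlapped. Of 17 genes in this class 9 could be tested, and edgeR, DESeq2 and limma-voom called 0 in either fit. An unadjusted p under 0.05 was found for 2 lower with 6 libraries and for 1 higher and 2 lower with 5. Of all genes tested, 5.86% were lower with 6 libraries, and 10.4% were higher and 11.2% lower with 5. The 2 lower with 6 libraries were Trim30a and Trim34a, both highest in control replicate 1. The remaining members of the class were at 22.7 CPM or less, and several had most of their counts in control replicate 1.

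Against the mean of the other 5 libraries, control replicate 1 was past 2-fold higher for 5 of the 36 tested TRIM genes and past 2-fold lower for 1 (13.9% and 2.78%), where 11.3% and 8.23% of all genes tested were. The median log2 ratio of the 36 was 0.02, against -0.02 over all genes. This ratio has 1 library on its upper side and no test. Over 9 TRIM genes that reached 1 CPM in some library the ratio was above 4-fold: Trim44, Trim12a, Trim5, Trim43c, Trim43a, Trim14, Trim30d, Trim30a and Trim34a. No gene at that level was below the others by as much. Trim12a, Trim5, Trim43c, Trim43a, Trim14 and Trim30d had too few counts to be tested and reached 1 CPM in control replicate 1 alone. The rule thus favours genes that are high in that library. Over all genes tested the 95th percentile of the log2 ratio was 1.61, and the share past 4-fold was not computed.

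**Figure D4:**
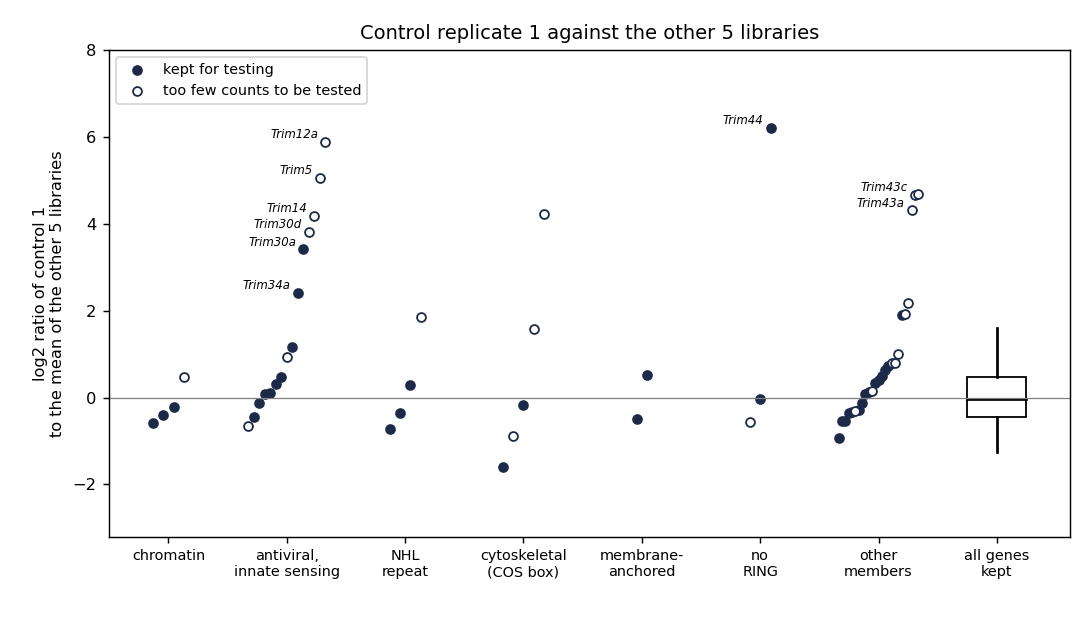
Log2 ratio of control replicate 1 to the mean of the other 5 libraries for the 58 TRIM genes with a count, grouped by role. The box spans the quartiles and the line the 5th to 95th percentiles of all genes tested (-1.25 to 1.61), and the named genes are those over 4-fold that reached 1 CPM in some library.

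Of these 9 genes 5 are neighbours. On chromosome 7, between 104218793 and 104507849, 10 TRIM genes follow each other with gaps of at most 14 kb. This run holds the rodent relatives of human TRIM5, which restricts retroviruses, and of TRIM6 and TRIM34. Trim30a, which in mice limits signalling from Toll-like receptors, was at 1.00, 0.447 and 0.397 CPM in A20 overexpression, against 8.27, 0.976 and 0.65 CPM in control replicates 1, 2 and 3. Trim34a was at 0.414, 0.192 and 0.397 CPM, against 3.19, 0.697 and 1.30 CPM. Trim5 had no count in any A20-overexpressing library and 37, 4 and 1 counts in the control replicates, which is 2.41, 0.279 and 0.0722 CPM. In each of these genes control replicate 1 was the highest library.

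Trim12a had 0, 1 and 0 counts in A20 overexpression, against 41, 0 and 0 counts in control replicates 1, 2 and 3. Trim30d had 0, 3 and 1 counts, against 18, 0 and 1 counts. Between libraries, 3 counts correspond to 0.177 to 0.217 CPM, the limit that a count of 0 allows for counting error only. Other genes of the same run did not stand out in control replicate 1. Trim6 was at 8.11 to 9.87 CPM in A20 overexpression and 8.50 to 11.3 CPM in control, Trim12c at 15.7 to 16.4 CPM and 18.7 to 22.7 CPM, and Trim34b at 0.575 to 1.99 CPM and 0.976 to 1.45 CPM. The groups overlapped for Trim6 and Trim34b and not for Trim12c, whose log2 fold change of -0.41 ± 0.19 (SE) did not pass edgeR with 5 libraries (adjusted p = 0.212; 0.634 with 6). Trim34a was lower in every A20-overexpressing library than in every control and did not pass (log2 fold change -1.58 ± 0.71 SE, edgeR adjusted p = 0.204 with 5 libraries; -2.28 ± 0.66 SE, adjusted p = 0.369 with 6). These genes arose by duplication, and reads can be split or shared between near-identical copies, so their single values are uncertain.

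**Figure D5:**
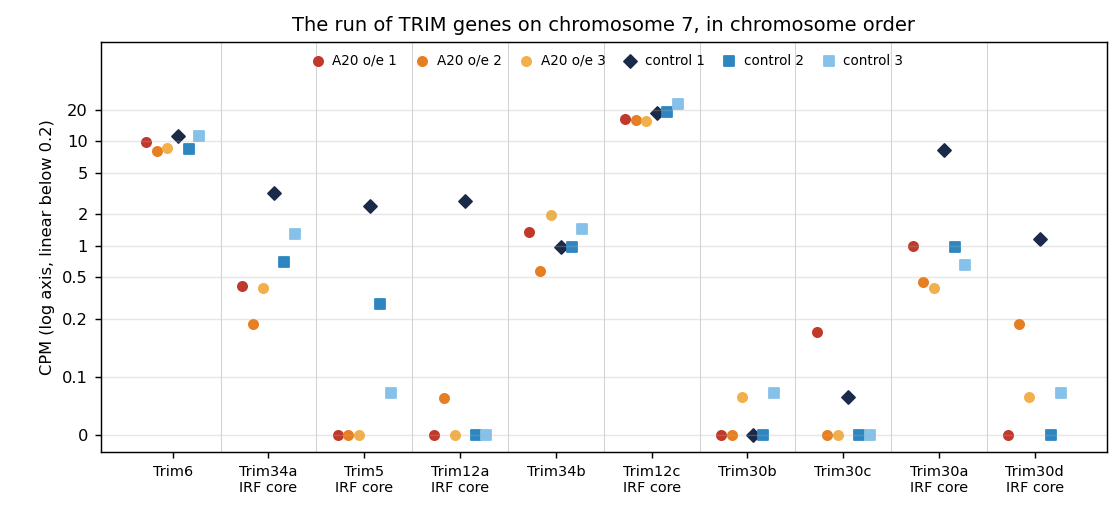
CPM in each library of the 10 TRIM genes that follow each other on chromosome 7, in chromosome order, on an axis that is linear below 0.2 CPM and logarithmic above, with genes marked whose promoter window holds an IRF core. Control replicate 1 is above each other library for Trim34a, Trim5, Trim12a, Trim30a and Trim30d.

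Promoter windows were available for 53 of the 68 TRIM genes. The IRF core was found in windows of 9 of them (17.0%), against 3.99% of 27025 genes, and the STAT core in 6 (11.3%), against 9.55%. Of the 9, Trim34a, Trim5, Trim12a, Trim12c, Trim30a and Trim30d belong to the run on chromosome 7, and the others are Trim2, Trim21 and Trim26. In the run, control replicate 1 was over 4-fold above the other libraries for 5 of the 6 genes with the core and for 0 of the 4 without it, whose log2 ratios were -0.66 to 0.93. Of these 4, Trim30b and Trim30c had 2 and 4 counts over all 6 libraries, so their ratios rest on almost no counts. Trim12c, which also holds the core, was at a log2 ratio of -0.12. Outside the run, Trim21, the cytosolic antibody receptor, Trim26 and Trim2 had ratios of 0.32, 0.33 and -0.37. Over all TRIM genes with a window that reached 1 CPM in some library, the ratio was over 4-fold for 5 of 9 with the core and for 2 of 22 without it, Trim44 and Trim43a. Trim5, Trim12a and Trim30d, with the core, and Trim43a, without it, reached 1 CPM in control replicate 1 alone. They were thus counted because of the library whose ratio is compared, so these shares are in part set by the choice of genes. These windows are copies of one another in part, so they are not separate observations. Trim30a has 2 windows, both with the core, of which 1 is printed. The stretches hold the core with 30 bases on each side, shown to compare the copies, and capitals mark the core, which on the strand of each gene reads as the reverse complement of the motif.
Trim34a, chr7:104244437-104244506, plus strand: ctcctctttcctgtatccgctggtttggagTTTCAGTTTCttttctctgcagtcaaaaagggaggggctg
Trim5, chr7:104288116-104288185, minus strand: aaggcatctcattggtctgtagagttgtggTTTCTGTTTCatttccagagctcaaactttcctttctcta
Trim12a, chr7:104315446-104315515, minus strand: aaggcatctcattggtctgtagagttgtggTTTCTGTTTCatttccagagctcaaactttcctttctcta
Trim12c, chr7:104353339-104353408, minus strand: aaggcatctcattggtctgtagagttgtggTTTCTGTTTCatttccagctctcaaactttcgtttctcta
Trim30a, chr7:104465190-104465259, minus strand: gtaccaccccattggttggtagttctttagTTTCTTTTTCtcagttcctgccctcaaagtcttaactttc
Trim30d, chr7:104507851-104507920, minus strand: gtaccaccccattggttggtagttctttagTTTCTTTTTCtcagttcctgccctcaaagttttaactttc

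The printed stretches of Trim5 and Trim12a are the same, and Trim12c, whose RNA did not stand out in control replicate 1, has the same core. Of 15 interferon genes tested outside the family, 8 had a higher level in control replicate 1 than the mean of the other 5 libraries and 5 were past 2-fold higher, with a median log2 ratio of 0.20. Of all 13350 genes tested, 6501 were higher in control replicate 1 and 11.3% were past 2-fold higher, with a median of -0.02. Among genes chosen after their values were seen, Isg15, a ubiquitin-like modifier, was at 0.709 to 1.46 CPM in A20 overexpression, against 13.9, 0.627 and 1.66 CPM in control replicates 1, 2 and 3. Ifih1, the RNA sensor MDA5, which is not among the 15 interferon genes, was at 0.177 to 0.703 CPM, against 15.5, 0.558 and 0.867 CPM. Irf1 was at 25.4 to 36.6 CPM, against 33.4, 39.7 and 37.1 CPM, so that control replicate 1 lay within the range of the others. The part of interferon signalling in the levels of the TRIM genes was not tested.

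Trim14, Trim43a and Trim43c also had most of their counts in control replicate 1. Trim14, an adaptor in antiviral signalling, had 6, 1 and 2 counts in A20 overexpression, against 40, 0 and 2 counts in control replicates 1, 2 and 3. It overlaps Nans on the opposite strand, which was at 90.3 to 107 CPM in A20 overexpression and 72.2, 75.1 and 98.98 CPM in control replicates 1, 2 and 3, lowest where Trim14 was highest. Trim43a and Trim43c, near-identical genes known from the early mouse embryo, were at 0.177, 0.0639 and 0.397 CPM and at 0.295, 0.0639 and 0.199 CPM in A20 overexpression. In control replicates 1, 2 and 3 Trim43a was at 6.19, 0.209 and 0.723 CPM and Trim43c at 7.04, 0.139 and 0.65 CPM. A transcript on the opposite strand of Trim43c, 9330159M07Rik, was at 0.958 to 2.13 CPM in A20 overexpression, against 19.1, 1.11 and 2.24 CPM in control replicates 1, 2 and 3, so part of the reads given to Trim43c may belong to it.

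In the other role classes 0 genes passed edgeR, apart from those above. Of the NHL-repeat genes, Trim3 was at 66.7, 90.1 and 75.2 CPM in A20 overexpression, against 54.1, 70.3 and 92.1 CPM in control replicates 1, 2 and 3, and Trim32, a ligase of muscle and neural cells, at 43.98, 37.1 and 38.6 CPM, against 53.8, 35.8 and 38.1 CPM. The groups overlapped in both. Of the microtubule-binding members, Trim46, which organises microtubules in axons, was at 20.6, 20.4 and 22.7 CPM, against 18.3, 10.9 and 18.2 CPM. Trim36 was at 2.19, 1.72 and 2.12 CPM, against 0.586, 1.53 and 0.867 CPM. In neither gene did the groups overlap. The log2 fold change of Trim46 was 0.52 ± 0.22 (SE, edgeR adjusted p = 0.173) with 5 libraries and 0.47 ± 0.23 (SE, adjusted p = 0.532) with 6. That of Trim36 was 0.70 ± 0.51 (SE, edgeR adjusted p = 0.452) with 5 and 1.008 ± 0.52 (SE, adjusted p = 0.547) with 6. Trim46 overlaps Krtcap2 on the opposite strand, at 86.2 to 92.8 CPM in A20 overexpression and 99.96 to 113 CPM in control.

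Of the membrane-anchored members, Trim59 was at 192, 148 and 141 CPM in A20 overexpression, against 126.5, 192 and 123 CPM in control replicates 1, 2 and 3, and Trim13, a ligase of the endoplasmic reticulum, at 4.02, 3.19 and 3.71 CPM, against 5.08, 2.93 and 1.95 CPM. The groups overlapped for Trim59 in both fits and for Trim13 only with control replicate 1, without which each A20-overexpressing library was above both controls. Trim13 did not pass edgeR in either fit (adjusted p = 0.449 with 5 libraries and 0.914 with 6). It shares its locus with Dleu2 on the opposite strand, a non-coding gene that fell with 5 libraries (17.7 to 20.3 CPM, against 35.5 and 28.4 CPM; edgeR adjusted p = 0.0251; 0.274 with 6). Trim16, a RING-less member that acts with galectin-3 at damaged lysosomes, had 97, 68 and 151 counts in A20 overexpression, against 81, 41 and 45 counts in control replicates 1, 2 and 3, with a log2 fold change of 1.09 ± 0.37 (SE, edgeR adjusted p = 0.0969) with 5 libraries and of 0.86 ± 0.41 (SE, adjusted p = 0.530) with 6. Trim35 and Trim37 were the most abundant members outside the classes. Trim35, known to bind the glycolytic enzyme PKM2, was at 93.0, 76.7 and 95.2 CPM, against 141, 47.1 and 70.7 CPM. Its log2 fold change was 0.56 ± 0.17 (SE, edgeR adjusted p = 0.0634) with 5 libraries, where DESeq2 called it (adjusted p = 0.0425). With 6 libraries it was 0.10 ± 0.31 (SE, edgeR adjusted p = 0.938), and DESeq2 did not call it (adjusted p = 0.966). Trim37 was at 111, 106 and 103 CPM, against 88.3, 119 and 120 CPM, and did not pass in either fit.

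Of 6 genes of the same protein family under other names, 3 could be tested. With 6 libraries edgeR and DESeq2 called 0 of them, with 1 lower at an unadjusted p under 0.05. Of all genes tested, 5.86% were lower at that threshold, and 1.92% were called higher with 5 libraries. Mid1, a microtubule-bound ligase of midline development, rose with 5 libraries (19.2, 19.4 and 24.7 CPM, against 7.67 and 13.7 CPM; log2 fold change 0.96 ± 0.24 SE, edgeR adjusted p = 0.0305; 0.582 with 6). In control replicate 1 it was at 22.7 CPM, within the range of A20 overexpression. Pml, the scaffold of nuclear bodies, did not pass, and Mid2 had counts in control replicate 1 alone, at 14.01 CPM. Among 16 ubiquitin-activating and -conjugating enzymes edgeR, DESeq2 and limma-voom called 0 in either fit. An unadjusted p under 0.05 was found for 0 with 6 libraries and for 1, higher, with 5, where 10.4% of all genes tested were higher. The most abundant of them per length, the E1 gene Uba1, was at 318, 304 and 306 CPM, against 412, 238 and 252 CPM.

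Of 19 genes of nucleic acid sensing edgeR called 0 in either fit, and DESeq2 called 1 with 5 libraries. An unadjusted p under 0.05 was found for 1 lower with 6 libraries and for 1 higher and 1 lower with 5. Of all genes tested, 5.86% were lower with 6 libraries, and 10.4% were higher and 11.2% lower with 5. These few genes do not speak for the list. Tab2, an adaptor of TAK1 and the most abundant of them per length, was at 327, 291 and 345 CPM in A20 overexpression, against 287, 302 and 244 CPM in control replicates 1, 2 and 3. Of the 15 interferon genes edgeR called 0 with 6 libraries, with 4 lower at an unadjusted p under 0.05, where 5.86% of all genes tested were, and DESeq2 called 1. With 5 libraries edgeR called 1, with 2 lower at an unadjusted p under 0.05, where 11.2% of all genes tested were. This was Oasl2, an antiviral gene, which fell with 5 libraries (1.77, 0.767 and 1.26 CPM, against 4.95 and 4.48 CPM; edgeR adjusted p = 0.0161; 0.269 with 6) and was at 30.6 CPM in control replicate 1. Of 12 autophagy partners edgeR, DESeq2 and limma-voom called 0 in either fit. An unadjusted p under 0.05 was found for 0 with 6 libraries and for 1, lower, with 5, where 11.2% of all genes tested were lower. The receptor gene Sqstm1 was at 758, 893 and 791 CPM, against 841, 664 and 737 CPM.

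Markers of other testis cells differed between libraries as well. The 5 Sertoli cell markers summed to 9.16 to 13.6 CPM in A20 overexpression, against 230.7, 22.9 and 31.3 CPM in control replicates 1, 2 and 3, nearly all from Clu, and Sox9 and Fshr had no count in any library. Clu was lower in every A20-overexpressing library than in every control, and it fell also without control replicate 1 (log2 fold change -1.30 ± 0.21 SE, edgeR adjusted p = 0.00288; -2.93 ± 0.76 SE, adjusted p = 0.298 with 6), where DESeq2, limma-voom and limma-trend called it too. The 4 endothelial markers summed to 3.05 to 4.86 CPM, against 36.7, 3.97 and 4.55 CPM, the first of these nearly all from Cdh5. Egfl7 went the other way, at 3.05 to 4.47 CPM, against 1.04, 3.83 and 4.335 CPM in control replicates 1, 2 and 3. In control replicate 1 Kdr had no count, and Pecam1 was at its highest, 0.586 CPM. The 4 macrophage markers summed to 19.3 to 38.8 CPM, against 4.24, 30.9 and 30.7 CPM, nearly all from Cd68, with Adgre1 and Ptprc at 0 throughout. The 5 germ cell markers summed to 8.08 to 12.2 CPM, against 9.77, 6.13 and 8.24 CPM. Their part in the levels of the TRIM genes was not tested.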

How the data were processed

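The authors deposited whole-number counts per gene and FPKM values for 6 libraries. Genome build, per the submitters' processing notes: GRCm38 (mm10); aligner, counter and strand setting are not given in the sources used here. The deposited FPKM equalled the count per kilobase of the deposited gene length and per 1000000 of a library size that the authors scaled. CPM were computed here from the total count of each library. The test was edgeR 4.0.16 (R 4.3.3), quasi-likelihood with TMM factors, robust fitting, the default filter by group and Benjamini-Hochberg adjustment over all genes tested, with a threshold of 0.05. Fold changes are A20 overexpression over control; a standard error is the log2 fold change divided by the square root of F. The ratio of control replicate 1 uses TMM-scaled log2 CPM with a prior count of 0.5. Groups follow the sample titles, and same-numbered samples were not paired by any label.

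Genes named are all members past the threshold or with an unadjusted p under 0.05 in both fits, those over 4-fold apart in control replicate 1 at 1 CPM or more, the 2 most abundant of each role class, and Trim44 with its neighbours; Trim12c, Trim6, Trim34b, Trim21, Trim26, Isg15, Ifih1 and Irf1 were named after their values were seen. Some genes of the related lists are not reported here. The members and lists were chosen with earlier results of these data known. Alternatives were other scalings, filters and tools (DESeq2 1.42.0, limma 3.58.1), a replicate block and leaving out libraries. The procedure was tested on simulated data. Promoter windows are RefSeq's on GRCm38.p6, searched in Python 3.11.15.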

Additional observations from a re-analysis of the deposited data

How the results depend on the processing

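With all 6 libraries, 0 TRIM genes were called under each other scaling, filter and tool and under the replicate block (DESeq2 gave Trim44 no adjusted p); leaving out 1 library gave 0 to 3, the 3 without control replicate 1. With 5 libraries, 3 were called, 6 without a filter on low counts, and 1 to 9 on leaving out a further library. Same-numbered pairs correlated at r = 0.020, 0.106 and -0.028 in their deviations from the group means, and not every sample correlated best with its own number. The control mean includes control replicate 1, which stood apart, so these values cannot decide whether the replicate numbers pair the samples. The replicate block gave 0 calls with 6 libraries and 4 with 5, Trim7 being added (log2 fold change 1.67). Among genes that were not called, signs turned where the log2 fold change lay near 0. With 6 libraries, leaving out 1 library gave -0.14 to 0.25 for Trim24, -0.031 to 0.45 for Trim59, -0.076 to 0.53 for Trim13, -0.10 to 0.34 for Trim3, -0.14 to 0.078 for Trim32, -0.16 to 0.56 for Trim35 and -0.20 to 0.11 for Trim37; Trim37 was 0.0089 with limma-voom, 0.011 and 0.0135 with limma-trend (FPKM, pseudocounts 1 and 0.1), and 0.0085 under the block. With 5 libraries, leaving out a further one gave -0.28 to 0.019 for Trim24, -0.14 to 0.064 for Trim25, -0.27 to 0.13 for Trim56, -0.34 to 0.40 for Trim59 and -0.24 to 0.062 for Trim3; without a filter Trim25 was 0.020 and Trim59 0.011, Trim59 was 0.015 with limma-voom and 0.013 and 0.014 with limma-trend, and Trim3 was 0.0020 under the block. The cause was not tested. Over all genes, DESeq2 called 162 and no filter 23 with 6 libraries, against 2, and no filter called 1173 and limma-trend 235 and 177 with 5, against 628; leaving out A20-overexpressing replicate 1, 2 or 3 gave 142, 191 and 160, and leaving out control replicate 3 gave 2423. Depth limits the members under 1 CPM, where 1 count is a visible share of the value.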
